A study of Mus musculus with 3 samples.

Results

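The genes described here code for the respiratory chain, the ATP synthase, the mitochondrial ribosome and the machinery that imports proteins into mitochondria. They were chosen by symbol: every gene whose name begins with Nduf, Cox and a digit, Uqcr, Atp5, Sdha to Sdhd, Mrpl or Mrps and a digit, Timm or Tomm. The rule found 171 genes, read by 175 probes, among the 16446 genes with a symbol on the array. By complex they were counted as 34 subunits of complex I, 4 of complex II, 7 of complex III, 15 of complex IV and 16 of the ATP synthase. With them stood 46 Mrpl and 28 Mrps genes, 7 Timm genes and 7 Tomm genes. Mrpl genes were counted as large and Mrps genes as small mitoribosomal subunit by symbol alone. Also included were 5 genes that serve assembly or organisation of complex IV (Cox10, Cox11, Cox15, Cox17 and Cox7a2l), the complex I assembly factor Ndufaf1, and Cox4nb. Cox4nb now bears the name Emc8, belongs to the ER membrane complex and is no mitochondrial gene. Atp5s, which now bears the name Dmac2l, was counted with the ATP synthase by symbol and is no structural subunit of it.

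The study asks how Blimp1, the transcription factor of plasma cell differentiation, drives IL-10 production in CD138hi cells that carry IgM. The genotype of all 3 samples was the IL-10 Venus reporter, a mouse whose cells fluoresce where the Il10 locus is active, and all were sorted fresh by flow cytometry. Spleen B220+ cells, which carry the CD45 isoform of the B lineage, served as the control. The others were Venus+ CD138hi cells, taken from spleen in 1 sample and from bone marrow in the other; CD138 (syndecan-1) marks plasma cells and plasmablasts. Each was hybridised to 1 single-colour 3D-Gene array, so no comparison has a replicate, no p-value can be given, and the sources used here give neither the age of the mice nor how many were pooled.

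The respiratory chain passes electrons from NADH (complex I) and succinate (complex II) through complex III to oxygen at complex IV, and the proton gradient so built drives the ATP synthase. A few of its subunits are made inside the organelle from mitochondrial DNA by the mitoribosome, whose proteins are themselves coded in the nucleus; none of the genes described here lies on mitochondrial DNA. All other subunits enter as precursors through the TOM complex of the outer membrane and the TIM complexes of the inner membrane, and plasma cells are known for a high demand on ATP to fold and secrete antibody.

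Promoters of many such genes hold sites for the factors NRF1, GABP of the ETS family, and YY1. RefSeq promoters (build GRCm38.p6, 250 bases before to 50 after the start of the gene) were matched to 145 of the 171 genes and searched on both strands for GCATGCGC (NRF1), CCGGAAG (ETS) and AAGATGGC (YY1). The NRF1 letters were found in 18 genes (12.4%), the ETS letters in 46 (31.7%) and the YY1 letters in 23 (15.9%). Among the 13127 genes of the array that had a promoter in that table, the shares were 4.71%, 14.7% and 4.06%, and among all 27025 genes of the table they were 3.05%, 9.93% and 3.19%. At least 1 of the 3 motifs stood in 72 of the 145 genes (49.7%), against 21.3% of the genes of the array. The 5 promoters below are shown because their genes were at least 2-fold apart between marrow Venus+ and B220+ cells and hold a motif, those of Uqcr and Atp5j2 with the higher signal in the marrow cells and those of Tomm70a, Tomm34 and Mrpl9 with the lower. The capitals mark the motif letters on either strand. Uqcr (now Uqcr11) lies at chr10:80406772-80407071 on the minus strand, Atp5j2 at chr5:145191492-145191791 on the minus strand, Tomm70a at chr16:57121464-57121763 on the plus strand, Tomm34 (1 of its 2 listed promoters) at chr2:164071120-164071419 on the minus strand and Mrpl9 at chr3:94443086-94443385 on the plus strand.
Uqcr: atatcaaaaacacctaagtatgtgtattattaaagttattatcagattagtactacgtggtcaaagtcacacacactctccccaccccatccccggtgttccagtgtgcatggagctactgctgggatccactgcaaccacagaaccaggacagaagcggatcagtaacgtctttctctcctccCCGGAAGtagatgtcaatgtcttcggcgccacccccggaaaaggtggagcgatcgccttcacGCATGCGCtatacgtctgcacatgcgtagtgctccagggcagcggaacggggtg
Atp5j2: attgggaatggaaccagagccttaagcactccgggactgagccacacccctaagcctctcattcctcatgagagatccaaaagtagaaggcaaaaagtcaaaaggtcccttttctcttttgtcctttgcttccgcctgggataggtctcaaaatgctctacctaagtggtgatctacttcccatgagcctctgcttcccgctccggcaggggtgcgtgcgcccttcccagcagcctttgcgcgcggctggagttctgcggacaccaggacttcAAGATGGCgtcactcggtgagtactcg
Tomm70a: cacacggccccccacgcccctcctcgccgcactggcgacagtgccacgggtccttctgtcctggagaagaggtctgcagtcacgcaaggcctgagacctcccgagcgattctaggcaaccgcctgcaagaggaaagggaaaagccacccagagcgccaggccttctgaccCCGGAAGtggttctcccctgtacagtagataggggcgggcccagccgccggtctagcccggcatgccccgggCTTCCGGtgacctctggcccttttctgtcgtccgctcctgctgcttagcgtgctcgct
Tomm34: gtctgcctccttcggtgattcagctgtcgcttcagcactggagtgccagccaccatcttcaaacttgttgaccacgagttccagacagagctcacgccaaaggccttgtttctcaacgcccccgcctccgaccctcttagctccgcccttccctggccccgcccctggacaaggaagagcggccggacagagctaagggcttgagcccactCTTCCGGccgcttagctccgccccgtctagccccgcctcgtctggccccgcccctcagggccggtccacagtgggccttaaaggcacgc
Mrpl9: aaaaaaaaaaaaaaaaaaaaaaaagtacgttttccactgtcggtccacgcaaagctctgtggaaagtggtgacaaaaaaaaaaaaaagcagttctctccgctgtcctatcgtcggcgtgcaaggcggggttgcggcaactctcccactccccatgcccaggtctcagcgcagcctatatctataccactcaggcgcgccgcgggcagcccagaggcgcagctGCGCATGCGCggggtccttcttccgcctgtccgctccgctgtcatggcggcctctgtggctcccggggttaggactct
The Uqcr promoter holds 1 NRF1 and 1 ETS match, that of Atp5j2 1 YY1 match, that of Tomm70a 2 ETS matches and that of Tomm34 1 ETS match. In Mrpl9 the capitals are a palindrome that matches NRF1 on both strands, the matches overlapping. Motifs thus stood before genes of either direction: 2 of 6 genes called higher in marrow Venus+ over B220+ cells and 10 of 25 called lower, counting those with a listed promoter, held at least 1 motif. A match is a run of letters and does not show that a factor was bound.

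Most of these genes were expressed in all 3 samples. The deposited signals have the background of the array's blank spots subtracted and the median of the detected probes set to 25, and a probe without a value was not detected above the blanks. On all 3 arrays 160 of the 171 genes (93.6%) were detected, against 65.6% of all genes. Cox8c, the testis isoform of a complex IV subunit, Mrpl41 and Uqcrq were detected on none, and 8 genes on 1 or 2 arrays. The arrays detected 67.6% to 73.4% of their probes. Relative error was taken from the blank spots and from the spread of repeated positive control spots (5.21% to 7.57%), and the ± given with a log2 ratio is this error of the spots on both arrays; it does not hold the spread between mice or sorts. A gene counts as called, higher or lower, if both arrays detected it and its signals were at least 2-fold apart. Ratios compare a probe with itself, and signals of different genes were not ranked.

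The sorted cells carried the markers of their labels, with signs of other cells. The summed signal of 6 plasma cell genes was 697.5 on the B220+ array, 12380.0 on that of spleen Venus+ and 20517.7 on that of marrow Venus+ cells. Most of it in the Venus+ samples was Xbp1 (354.5, 7174.1 and 8403.5) and Igh6 (11.0, 2432.9 and 8236.1). Sdc1 and Tnfrsf17 were also highest in marrow Venus+ cells, while Prdm1 (8.7, 81.5 and 34.4) and Irf4 (320.8, 1128.2 and 687.9) were highest in spleen Venus+ cells. The sum of 7 B cell genes was 29476.5, 10507.9 and 4346.6. Neutrophil genes (6) summed to 4919.5 in B220+ cells, 14.5 in spleen Venus+ cells, where S100a9, Camp, Ltf and Mpo were not detected, and 199.3 in marrow Venus+ cells. Mpo alone among them was higher in marrow Venus+ (29.8) than in B220+ cells (2.2). T cell genes (6) summed to 35.2, 755.0 and 1112.0, of which Cd247 made up 15.7, 637.0 and 1038.5. Monocyte and macrophage genes (4) summed to 58.3, 136.1 and 268.1 and erythroid genes (4) to 283.4, 38.0 and 31.8. These levels differ between the arrays that every comparison below sets against each other, and their part in the results was not tested.

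As a whole the genes of the respiratory chain, mitoribosome and import moved little beside the rest of the transcriptome. In spleen Venus+ over spleen B220+ cells 5 of 166 genes measured on both arrays were called higher and 14 lower, where 15.8% and 16.5% of all genes were called higher and lower. In marrow Venus+ over spleen B220+ cells 10 of 160 were higher and 29 lower, where all genes gave 22.6% and 30.7%. In marrow Venus+ over spleen Venus+ cells 2 of 161 were higher and 5 lower, where all genes gave 4.33% and 15.2%. Of the 160 genes detected on all 3 arrays, 118 (73.8%) stayed under 2-fold in every comparison, against 4642 of 10792 genes (43.0%). The interquartile range of their log2 ratios was 0.87, 1.08 and 0.50 in the 3 comparisons, against 1.32, 2.12 and 1.02 for all genes. This narrower range held under 8 of 9 other ways of processing in each comparison. The exception was normexp, a model-based background correction, on the local background of the spots. Scaling to the probes detected on all 3 arrays is among these ways and cannot change such a range. Single calls depended on the background correction: normexp on the local background kept 5 of the 19 called genes at least 2-fold apart in the first comparison, 10 of 39 in the second and 2 of 7 in the third, and normexp on the blank spots kept 8, 26 and 0. Calls among all genes fell too. With normexp on the local background, the shares higher and lower were 3.29% and 4.08%, 2.92% and 9.58%, and 0.633% and 3.68%. On the blank spots they were 2.86% and 14.7%, 4.29% and 25.7%, and 0.598% and 2.97%. Both corrections add an offset of 50, whose part was not tested.

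The share of called genes also depends on signal. Among genes with a mean signal of 400 or more on the 3 arrays, 5 of 65 were called higher and 3 lower in marrow Venus+ over B220+ cells, where 19.4% and 27.0% of the 634 genes of the array in that range were. From 100 to 400, 1 of 54 was higher and 10 lower, against 13.4% and 38.8% of 2017 genes. From 25 to 100, 3 of 30 were higher and 13 lower, against 16.7% and 39.8% of 3542 genes. In that range the share called lower, 43.3%, lay near that of all genes, while at higher signals it lay under it. Under 25, 1 of 11 was higher and 3 lower, against 31.6% and 20.9% of 4599 genes.

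**Figure D1:**
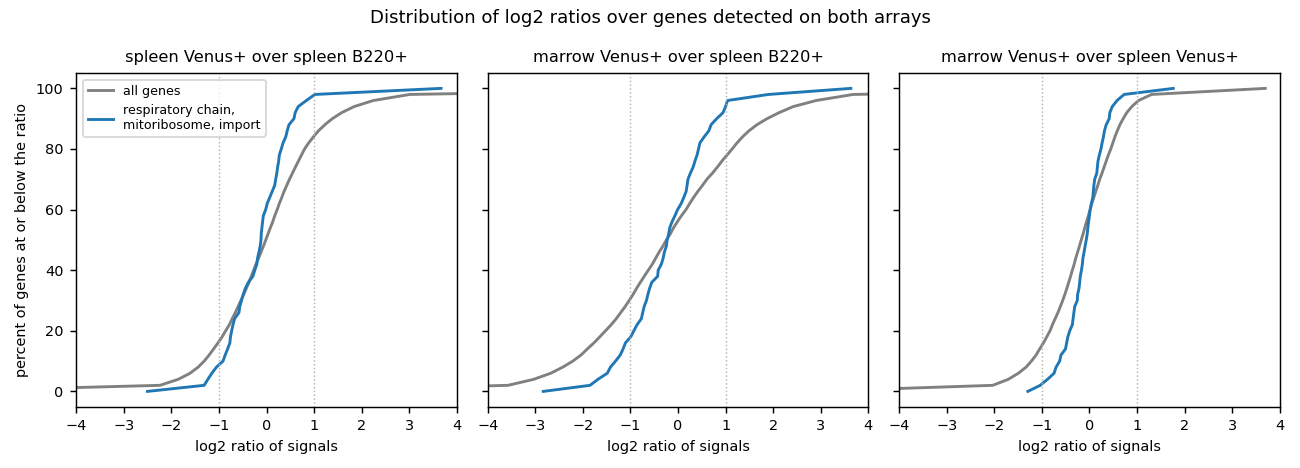
Percent of genes (vertical axis) at or below each log2 ratio of signals (horizontal axis) in the 3 comparisons, for all genes detected on both arrays (grey) and for the respiratory chain, mitoribosome and import genes (blue); dotted lines mark 2-fold. The blue curves are steeper: the interquartile range in marrow Venus+ over spleen B220+ cells was 1.08 against 2.12 for all genes.

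The median log2 ratio of the genes was -0.12, -0.23 and -0.07 in the 3 comparisons in the order above, beside -0.02, -0.24 and -0.17 for all genes. These levels hang on scaling, since fewer probes were detected on the marrow array. When each array was scaled to the probes detected on all 3, the medians became -0.15, 0.06 and 0.26, with -0.05, 0.05 and 0.16 for all genes. The calls became 3 higher and 16 lower, 19 higher and 17 lower, and 5 higher and 0 lower. Of all called genes, the share called higher in marrow Venus+ over B220+ cells went from 42.3% to 54.0% with that scaling, and in marrow over spleen Venus+ cells from 22.2% to 57.9%. The complexes are therefore set against each other, which scaling leaves as it is, and against the median of all genes.

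The complexes did not move alike. Pooled as 1 group, subunits of the respiratory chain and ATP synthase kept the highest median. Mitoribosomal genes lay below this group, and import genes lay lowest. In marrow Venus+ over spleen B220+ cells the medians were 0.11 for 71 chain and ATP synthase subunits, -0.33 for 70 mitoribosomal genes and -1.10 for 12 import genes. Relative to all genes these were 0.35 above, -0.09 and -0.86. The median of all genes itself varied with mean signal: 0.30 under 25, -0.62 from 25 to 100, -0.66 from 100 to 400 and -0.24 from 400. The complexes were not set against genes of like signal, so the part of signal in their order was not tested. The calls were 8 higher and 2 lower in the chain and ATP synthase, 2 higher and 18 lower in the mitoribosome, and 0 higher and 7 lower in import. The shares higher were 11.3%, 2.86% and 0%, where all genes gave 22.6%, and the shares lower were 2.82%, 25.7% and 58.3%, where all genes gave 30.7%. Import alone thus lay above the background with the deposited values. With scaling to the probes detected on all 3 arrays its 7 lower genes became 3 of 12. All genes then gave 24.1% lower, so import lay near the background with that scaling. In spleen Venus+ over spleen B220+ cells the medians were -0.01 for 73 genes, -0.25 for 73 and -0.36 for 13, with 4 higher and 1 lower, 1 higher and 11 lower, and 0 higher and 2 lower (all genes 15.8% and 16.5%). In marrow over spleen Venus+ cells they were 0.05, -0.14 and -0.43, with 1 higher and 1 lower, 1 higher and 2 lower, and 0 higher and 2 lower (all genes 4.33% and 15.2%). The order did not hold for each complex of the chain. Complexes II and III had medians of -0.73 and -0.71 in marrow Venus+ over B220+ cells, below the mitoribosome but above import. In spleen Venus+ over B220+ cells they had -0.48 and -0.46, below both. In marrow over spleen Venus+ cells they had -0.17 and 0.03, and complex II alone lay below the mitoribosome. Complex I, complex IV subunits and the ATP synthase lay above the mitoribosome in all 3 comparisons.

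The comparisons with B220+ cells share the B220+ array, so their likeness is not independent evidence. The chain lay above the mitoribosome in 10 of 10 ways of processing in both comparisons with B220+ cells and in 9 of 10 in marrow over spleen Venus+ cells. The distance between these medians in marrow Venus+ over B220+ cells was 0.44, and it ran from 0.02 with quantile normalization to 0.48. The chain lay above import in 10, 9 and 10 of 10 ways in marrow Venus+ over B220+, spleen Venus+ over B220+ and marrow over spleen Venus+ cells. The mitoribosome lay above import in 9, 8 and 10 of 10. The sign of the chain median itself turned in 2, 4 and 3 of 9 other ways of processing, in the same order. The 10 ways include the deposited values themselves, and scaling to shared probes cannot change the order of medians. The mean over probes touches only the 4 genes described here that have several probes. The 10 are therefore not independent of each other.

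**Figure D2:**
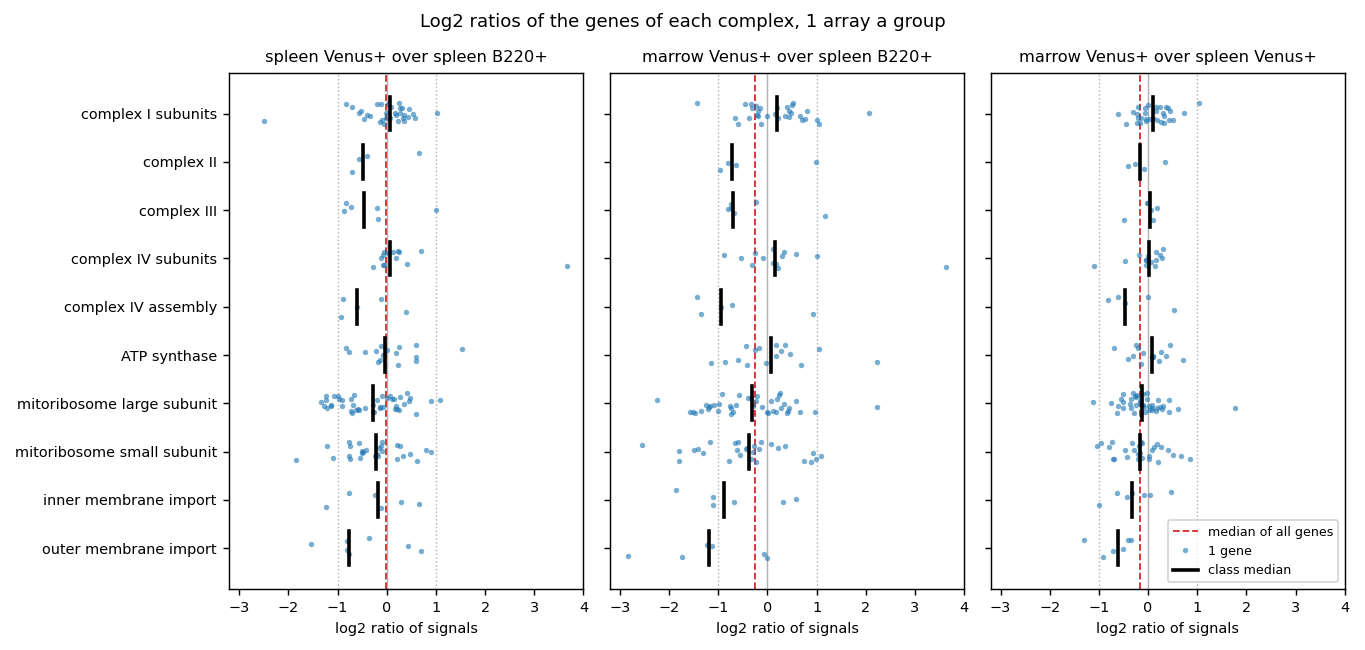
Log2 ratio of signals (horizontal axis) of each gene detected on both arrays (points), by complex (rows), in the 3 comparisons; black bars are medians of the complex, the red dashed line is the median of all genes, and dotted lines mark 2-fold. In the middle panel the bars run from 0.19 for complex I subunits down to -1.18 for outer membrane import.

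Complex I, the NADH dehydrogenase, was grouped here with Ndufa4. So grouped, complex I had the highest median of the complexes in marrow Venus+ over B220+ cells, beside 0.15 for complex IV subunits. Its 31 subunits measured on both arrays had a median of 0.19 in marrow Venus+ over B220+ cells (0.43 above all genes), with 3 higher and 1 lower. The median of 33 subunits in spleen Venus+ over B220+ cells was 0.07, with 1 higher and 1 lower. The 6 catalytic core subunits that the rule holds gave a median of 0.11 in marrow Venus+ over B220+ cells, between -1.44 for Ndufs1 and 0.76 for Ndufs3. Over 12 other settings the complex I median in marrow Venus+ over B220+ cells ran from -0.44 to 0.48, and its sign turned in 2 of them and, in spleen Venus+ over B220+ cells, in 1.

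Ndufa1, a small accessory subunit coded on the X chromosome, was the subunit of complex I with the highest ratio in every comparison. Its signal was 670.0 on the B220+ array, 1359.1 on that of spleen Venus+ and 2796.6 on that of marrow Venus+ cells. It was 2.03-fold higher in spleen Venus+ than in B220+ cells (log2 ratio 1.02 ± 0.14), 4.17-fold higher in marrow Venus+ cells (2.06 ± 0.13) and 2.06-fold higher in marrow than in spleen Venus+ cells (1.04 ± 0.11). No other gene described here passed 2-fold upwards in all 3 comparisons. These calls depended on the processing: with normexp on the local background the ratio in marrow Venus+ over B220+ cells was 0.17, under 2-fold, and that in marrow over spleen Venus+ cells was -2.55, with the sign turned. The spleen ratio was 0.98, just under 2-fold, with scaling to the shared probes. Ndufb9 (423.3, 615.4 and 870.9 in B220+, spleen Venus+ and marrow Venus+ cells) and Ndufa13 (1130.9, 1672.5 and 2270.4), also accessory subunits, were 2.06-fold and 2.01-fold higher in marrow Venus+ than in B220+ cells. Both lay just above the limit.

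Ndufs1, the largest subunit of complex I and carrier of iron-sulfur clusters, went the other way. Its signals were 150.2, 85.1 and 55.5, which made it 2.71-fold lower in marrow Venus+ than in B220+ cells (-1.44 ± 0.14). With normexp on the local background its ratio was 0.24, with the sign turned. The other core subunits were Ndufv2 at 1024.6, 709.7 and 677.2, Ndufv1 at 202.6, 184.4 and 183.7, Ndufs8 at 309.4, 372.8 and 399.0, Ndufs7 at 340.7, 344.4 and 459.1 and Ndufs3 at 528.6, 726.1 and 894.5. None of these 5 was called in any comparison. Ndufa4, long listed with complex I and now known as a subunit of complex IV, was at 891.6, 1132.2 and 1017.6. It was counted with complex I here, and its log2 ratio of 0.19 in marrow Venus+ over B220+ cells is the complex I median itself. Medians with Ndufa4 moved to complex IV were not computed.

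Some dim complex I genes were not detected on the marrow array. Ndufb2, an accessory subunit, had signals of 20.4 in B220+ and 3.6 in spleen Venus+ cells, a log2 ratio of -2.50 ± 0.38, and was not detected in marrow Venus+ cells, at least 8.50-fold lower than in B220+ cells. Ndufa3 was at 18.2 and 11.2 and not detected in the marrow cells, at least 7.58-fold lower than in B220+ and at least 4.67-fold lower than in spleen Venus+ cells. Ndufc1 was at 4.2 in B220+ cells and not detected in either Venus+ sample. Such bounds set the signal against the lowest value listed for the array without detection (1.3 in B220+, 1.7 in spleen Venus+ and 2.4 in marrow Venus+ cells). The complex I assembly factor Ndufaf1 was at 86.8, 60.4 and 47.8.

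Complex II, the succinate dehydrogenase shared with the tricarboxylic acid cycle, gave medians of -0.48 in spleen Venus+ and -0.73 in marrow Venus+ over B220+ cells, and none of its 4 genes was called. The flavoprotein Sdha was at 593.7, 449.5 and 338.8, the iron-sulfur subunit Sdhb at 530.8, 359.2 and 340.2 and the anchor Sdhd at 706.0, 435.1 and 364.4. These 3 were highest in B220+ cells. Sdhc, the other membrane anchor, was highest in marrow Venus+ cells, at 323.3, 510.8 and 644.7, and its ratio of 1.99-fold to B220+ cells lay just under the limit. The negative sign of the complex II median in both comparisons with B220+ cells held in 12 of 12 other settings.

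Complex III, the cytochrome c reductase, showed the same kind of split. Its median was -0.46 in spleen Venus+ and -0.71 in marrow Venus+ over B220+ cells, and 0.03 in marrow over spleen Venus+ cells. The core proteins Uqcrc1 (701.4, 616.4 and 437.2) and Uqcrc2 (1368.4, 823.3 and 823.4), the Rieske iron-sulfur protein Uqcrfs1 (581.5, 325.0 and 346.8) and Uqcrb (1749.7, 961.1 and 1008.7) were all highest in B220+ cells, without passing 2-fold. Uqcr, the smallest subunit, went instead from 394.5 in B220+ cells to 792.3 in spleen Venus+ and 894.2 in marrow Venus+ cells. It was 2.01-fold and 2.27-fold higher than in B220+ cells (1.01 ± 0.14 and 1.18 ± 0.13), and with normexp both ratios were under 2-fold (0.20 and 0.23 on the local background). The negative sign of the complex III medians over B220+ cells held in 12 of 12 other settings.

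Complex IV, the cytochrome c oxidase, varied little among its ubiquitous subunits. The 10 of them (Cox4i1, Cox5a, Cox5b, Cox6a1, Cox6b1, Cox6c, Cox7a2, Cox7b, Cox7c and Cox8a) had log2 ratios between -0.31 and 0.58 in marrow Venus+ over B220+ cells, with an interquartile range of 0.32, and between -0.27 and 0.42 in spleen Venus+ over B220+ cells. None was called in any comparison. Cox6b1, for example, was at 1772.6, 1928.6 and 1928.6, and Cox7a2 at 1825.2, 1766.4 and 1716.1.

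Cox6a2, the isoform known from heart and skeletal muscle, had the largest ratio of all genes described here. Its signal was 4.2 in B220+ cells, near the limit of detection, and 53.4 and 52.1 in spleen and marrow Venus+ cells. It was 12.7-fold higher in spleen Venus+ and 12.4-fold higher in marrow Venus+ than in B220+ cells (3.67 ± 0.27 and 3.63 ± 0.27), and both Venus+ samples were within error of each other (-0.04 ± 0.12). With normexp the ratio in marrow Venus+ over B220+ cells fell to 1.02 on the blank spots and 0.50 on the local background. Its ubiquitous counterpart Cox6a1 was at 3009.6, 3049.4 and 3388.4. Cox4i2, known from lung and induced by low oxygen, was at 47.7, 77.8 and 96.2, or 2.02-fold higher in marrow Venus+ than in B220+ cells (1.01 ± 0.14), and Cox4i1 was at 1907.0, 2552.9 and 2855.1. The muscle isoform Cox8b (4.8, 5.6 and 2.6) and the testis isoform Cox6b2 (5.4, 5.1 and 3.7) stayed near the limit of detection; Cox8b was 2.15-fold lower in marrow than in spleen Venus+ cells (-1.11 ± 0.70), a ratio that was 0.026 with normexp on the local background.

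The 5 genes grouped here with complex IV assembly lay below its subunits, with medians of -0.61, -0.94 and -0.47 in the 3 comparisons. The value of -0.94 is the ratio of Cox7a2l. Assembly genes outside this group went both ways in marrow Venus+ over B220+ cells. Surf1 and Cox19 had log2 ratios of 0.33 and 0.39, and Cox18 and Cox20 had -1.28 and -1.31. Cox15 and Cox10, which make heme A, were at 101.3, 66.3 and 37.6 and at 55.2, 51.1 and 33.5, and the copper chaperone Cox11 was at 40.0, 21.6 and 15.6. Cox15 was 2.69-fold and Cox11 2.56-fold lower in marrow Venus+ than in B220+ cells. Cox17, which brings copper to complex IV, was highest in marrow Venus+ cells (495.8, 654.5 and 948.9), under 2-fold. Cox7a2l, a factor of supercomplex formation, was at 1382.2 in B220+ cells and at 726.8 and 721.4 in the Venus+ samples, also under 2-fold. The median over B220+ cells kept its sign in 12 of 12 other settings in the marrow comparison and in 11 of 12 in the spleen comparison.

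**Figure D3:**
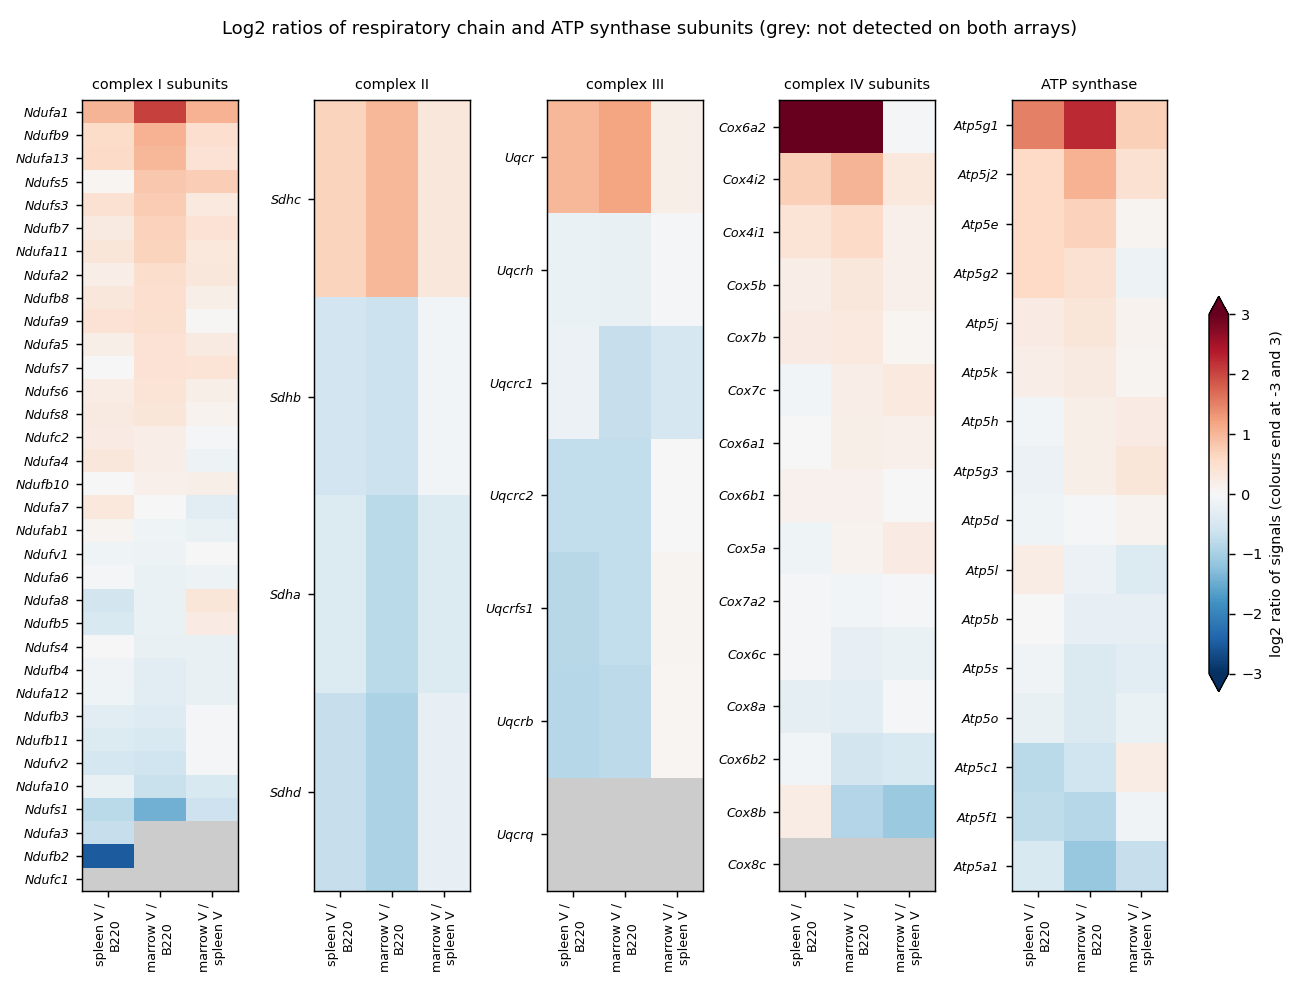
Log2 ratios of signals (colour) of the subunits of complexes I to IV and the ATP synthase (rows, ordered by the ratio in marrow Venus+ over spleen B220+ cells) in the 3 comparisons (columns; V is Venus+ CD138hi); grey marks genes not detected on both arrays. Ndufa1, Uqcr, Cox6a2 and Atp5g1 stand out at the top of their complexes, while Ndufs1 (-1.44) and Atp5a1 (-1.14) were called lower in the middle column.

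The ATP synthase had medians of -0.04, 0.07 and 0.08 in the 3 comparisons, with 1 of 16 genes called in spleen Venus+ and 3 in marrow Venus+ over B220+ cells. Its c ring is coded by 3 genes with the same mature protein, and only Atp5g1 among them was called. Atp5g1 was at 33.9 in B220+, 97.2 in spleen Venus+ and 158.9 in marrow Venus+ cells, 2.87-fold and 4.69-fold higher than in B220+ cells (1.52 ± 0.14 and 2.23 ± 0.14). With normexp on the local background neither call held (a ratio near 0 in spleen Venus+ and 0.75 in marrow Venus+ cells), and on the blank spots the ratio in spleen Venus+ cells was 0.67. Atp5g2 was at 1138.7, 1718.1 and 1558.5 and Atp5g3 at 2901.6, 2555.7 and 3270.5. Atp5j2, a small membrane subunit, was 2.06-fold higher in marrow Venus+ than in B220+ cells, at 675.1, 1020.0 and 1389.1.

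The subunits of the catalytic head differed among themselves. Atp5a1, the alpha subunit, was at 1024.7, 750.3 and 465.7, and was 2.20-fold lower in marrow Venus+ than in B220+ cells (-1.14 ± 0.13). The catalytic beta subunit Atp5b was at 2182.4, 2185.9 and 1838.4 and was not called. The gamma subunit Atp5c1 was at 2128.6, 1206.3 and 1412.4, and the epsilon subunit Atp5e at 1150.2, 1747.8 and 1857.4, neither being called. The sign of the ATP synthase median turned in 2, 4 and 2 of 12 other settings in spleen Venus+ over B220+, marrow Venus+ over B220+ and marrow over spleen Venus+ cells.

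**Figure D4:**
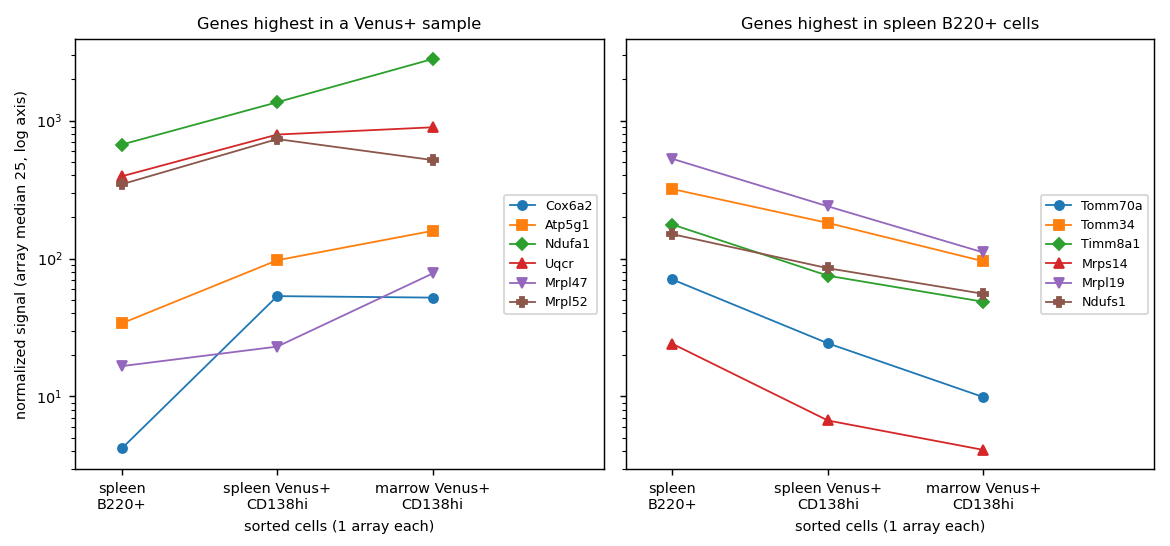
Normalized signal on a log axis (array median 25) of 12 named genes in the 3 sorted samples, 1 array each; lines join the values of a gene. Ndufa1, Atp5g1 and Cox6a2 were highest in a Venus+ sample, and Tomm70a, Mrps14 and Mrpl19 were highest in B220+ cells.

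In both comparisons with B220+ cells the mitoribosome held most of the genes called lower. It made up 70 of the 160 genes measured in marrow Venus+ over B220+ cells. In marrow over spleen Venus+ cells it held 2 of the 5 called lower. Genes were assigned to the large (Mrpl) or small (Mrps) subunit by symbol, also where the place of a protein may differ from its symbol. Of 42 genes so counted as large subunit, 11 were lower and 1 higher in marrow Venus+ over B220+ cells (median -0.31). Of 28 counted as small subunit, 7 were lower and 1 higher (median -0.37). These 25.7% lower among mitoribosomal genes stand beside 30.7% of all genes, so the share is not above the background; the 2.86% higher stand beside 22.6%. In spleen Venus+ over B220+ cells 8 of 45 and 3 of 28 were lower and 1 of 45 and 0 of 28 higher, with medians of -0.28 and -0.22. In marrow over spleen Venus+ cells the medians were -0.12 and -0.16, with 1 lower and 1 higher gene in the large and 1 lower in the small subunit. The medians of the large and small subunit lay close to each other in all 3 comparisons and turned sign in 1 or 2 of 12 other settings.

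Mrpl19 of the large subunit was at 528.3 in B220+, 239.1 in spleen Venus+ and 110.7 in marrow Venus+ cells. It was 2.21-fold and 4.77-fold lower than in B220+ cells (-1.14 ± 0.14 and -2.25 ± 0.13), and 2.16-fold lower in marrow than in spleen Venus+ cells. This order did not hold with normexp on the local background, where the ratios to B220+ cells were 1.24 in spleen Venus+ cells, with the sign turned, and -0.087 in marrow Venus+ cells. Mrps14 of the small subunit was at 24.1, 6.7 and 4.1, or 5.88-fold lower in marrow Venus+ than in B220+ cells (-2.56 ± 0.44); with normexp the ratio was -0.67 on the blank spots and -0.13 on the local background. Mrps9 was at 100.9, 59.6 and 28.9, 3.49-fold lower in marrow Venus+ than in B220+ and 2.06-fold lower than in spleen Venus+ cells. Mrpl39 (292.5, 116.4 and 105.0) and Mrpl50 (147.2, 60.9 and 51.4) were lower in both Venus+ samples, which hardly differed from each other.

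Mrps30 gave opposite answers with its probes. The probe with the higher signal read 223.0, 104.7 and 64.4, a log2 ratio of -1.79 in marrow Venus+ over B220+ cells, while the other read 15.1, 18.7 and 37.3, a ratio of 1.30. The call for this gene therefore holds for 1 probe alone. Mrpl15 (7.1 and 3.0), Mrpl33 (8.7 and 3.7) and Mrpl35 (4.4 and 2.1) were dim in B220+ and spleen Venus+ cells and not detected in marrow Venus+ cells. Mrpl33 was at least 3.62-fold and Mrpl15 at least 2.96-fold lower there than in B220+ cells.

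Some mitoribosomal genes went against the rest. Mrpl47 was at 16.6 in B220+, 23.0 in spleen Venus+ and 78.0 in marrow Venus+ cells, and so was 4.70-fold higher in marrow Venus+ than in B220+ cells (2.23 ± 0.15) and 3.39-fold higher than in spleen Venus+ cells (1.76 ± 0.13). With normexp these ratios were under 2-fold (0.86 and 0.84 on the blank spots, 0.65 and 0.47 on the local background). Mrps28 was at 212.2, 393.1 and 454.7, 2.14-fold higher in marrow Venus+ than in B220+ cells. Mrpl52 was highest in spleen Venus+ cells, at 345.4, 734.6 and 517.4, and was 2.13-fold higher there than in B220+ cells (1.09 ± 0.14). Mrps27 (12.2, 18.8 and 9.7) was also highest in spleen Venus+ cells but under 2-fold.

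Import genes as a group lay below the chain and the mitoribosome, and the lowest ratios among them in marrow Venus+ over B220+ cells were those of Tomm70a, Timm8a1 and Tomm34. All 3 receptors of the TOM complex were called lower in marrow Venus+ than in B220+ cells. Tomm70a, the receptor for carrier precursors, was at 70.5, 24.3 and 9.9, 2.90-fold lower in spleen Venus+ and 7.12-fold lower in marrow Venus+ than in B220+ cells (-1.54 ± 0.15 and -2.83 ± 0.22), and 2.45-fold lower in marrow than in spleen Venus+ cells. With normexp on the local background none of these calls held, the ratios to B220+ cells being -0.14 and -0.35. Tomm20, the receptor for presequences, was at 247.4, 140.7 and 105.5 (2.35-fold lower in marrow Venus+ than in B220+ cells), and the central receptor Tomm22 at 656.3, 384.4 and 300.5 (2.18-fold lower). Tomm34, a cytosolic factor that handles precursors, was at 318.9, 181.2 and 95.6 (3.34-fold lower).

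The channel and the small subunit of TOM behaved otherwise. Tomm40, the channel, was at 31.3, 50.6 and 31.0, with its other probe at 13.2, 11.0 and 12.5. Tomm7 was at 734.5, 987.2 and 697.4. Neither was called. The negative median of the Tomm genes (-0.77, -1.18 and -0.60) kept its sign in 12 of 12 other settings in all 3 comparisons, though with all arrays scaled to the shared probes Tomm20 and Tomm22 dropped under 2-fold (-0.94 and -0.83).

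The Timm genes were divided. Timm17a (166.9, 202.8 and 209.2) and Timm17b (188.1, 297.9 and 279.7), alternative subunits of the presequence translocase TIM23, were highest in Venus+ samples without passing 2-fold. Timm44, which ties the import motor to that channel, was at 60.5, 56.0 and 28.0, 2.16-fold lower in marrow Venus+ than in B220+ cells and 2-fold lower than in spleen Venus+ cells, on the limit itself; the latter call was lost with values recomputed from the scanner files. Timm50, the receptor of TIM23, was at 109.3, 92.5 and 68.5 and not called. Timm22, the channel for carrier proteins, was dim at 9.2, 5.4 and 4.3, 2.14-fold lower in marrow Venus+ than in B220+ cells with an error of 0.43 on a log2 ratio of -1.10, which was -0.077 with normexp on the local background. Timm8a1, a chaperone of the space between the membranes, was at 176.4, 75.1 and 48.6, 2.35-fold and 3.63-fold lower than in B220+ cells (-1.23 ± 0.14 and -1.86 ± 0.14); a dimmer probe read 9.6, 5.9 and no detection.

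Other mitochondrial genes, from lists of 65 genes present on the array, lay further below B220+ cells than the chain did. Of 64 measured, 2 were higher and 14 lower in spleen Venus+ over B220+ cells (median -0.33; all genes 15.8% and 16.5%), 2 higher and 27 lower in marrow Venus+ over B220+ cells (median -0.62; all genes 22.6% and 30.7%), and 0 higher and 6 lower in marrow over spleen Venus+ cells (median -0.32; all genes 4.33% and 15.2%). Of the 64, 21.9% and 42.2% were thus lower than in B220+ cells in the spleen and marrow samples. Among 15 genes of the tricarboxylic acid cycle and pyruvate dehydrogenase, 7 and then 8 were lower and 0 higher than in B220+ cells in the spleen and marrow Venus+ samples, with medians of -0.64 and -1.19. These were 46.7% and 53.3% of the list, beside 16.5% and 30.7% of all genes. With normexp on the local background the counts were 2 and 4, where 4.08% and 9.58% of all genes were lower. The fumarase Fh1 was at 332.2, 92.4 and 72.6, the succinate-CoA ligase subunit Sucla2 at 55.2, 14.7 and 7.8, the pyruvate dehydrogenase subunit Pdha1 at 139.3, 60.8 and 36.7 and the citrate synthase Cs at 312.3, 213.5 and 136.9. The chain and ATP synthase lay above this cycle list in 10 of 10 ways of processing in all 3 comparisons. These ways include the deposited values themselves and scaling to shared probes, which cannot change the order.

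Regulators of mitochondrial biogenesis were mostly called lower in the marrow cells with the deposited values. Of 11 measured, 2 were lower in spleen Venus+ and 8 in marrow Venus+ over B220+ cells and 0 higher in either (medians -0.58 and -1.35), and 3 were lower in marrow than in spleen Venus+ cells. The shares lower over B220+ cells were 18.2% and 72.7%, beside 16.5% and 30.7% of all genes. The 8 became 4 with normexp on the blank spots, where 25.7% of all genes were lower. On the local background they became 1, where 9.58% of all genes were lower, and the spleen median turned to 0.15. Tfam, which packs and transcribes mitochondrial DNA, was at 611.8, 132.9 and 100.8, Nrf1 at 83.8, 47.2 and 19.0, Yy1 at 285.9, 132.7 and 82.3 and the mitochondrial RNA polymerase Polrmt at 53.4, 38.5 and 17.1. Gabpa, the subunit of GABP that binds DNA, was at 35.3, 45.8 and 58.0 and was not called. Myc was highest in spleen Venus+ cells, at 52.7, 95.5 and 21.4. The coactivator Ppargc1a was at 13.1 in B220+ cells and not detected in the Venus+ samples.

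Further genes that belong to or serve the described complexes but lie outside the rule were also counted. In spleen and marrow Venus+ over B220+ cells 16.5% and 30.7% of all genes were called lower and 15.8% and 22.6% higher. Of 8 mitochondrial translation factors, 2 and 4 were lower and 0 higher in spleen and marrow Venus+ over B220+ cells (medians -0.34 and -1.06), with the elongation factor Gfm1 at 179.2, 76.1 and 56.5. Of 12 further import and folding genes, 1 and 4 were lower and 0 higher (medians -0.30 and -0.58), shares of 8.33% and 33.3% that are below or near the background, with the chaperonin Hspd1 at 900.1, 436.7 and 204.7. Of 18 electron carriers and assembly factors, 2 were higher in each, and 2 and 3 were lower (medians 0.14 and 0.20). Among them was Cyc1, a complex III subunit that the complex III medians above do not hold. It was at 311.7, 316.2 and 260.2 and was not called. Lrpprc, which stabilises mitochondrial mRNA, was at 174.3, 84.9 and 45.0, while cytochrome c (Cycs) was at 174.6, 100.3 and 105.7 and not called.

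**Figure D5:**
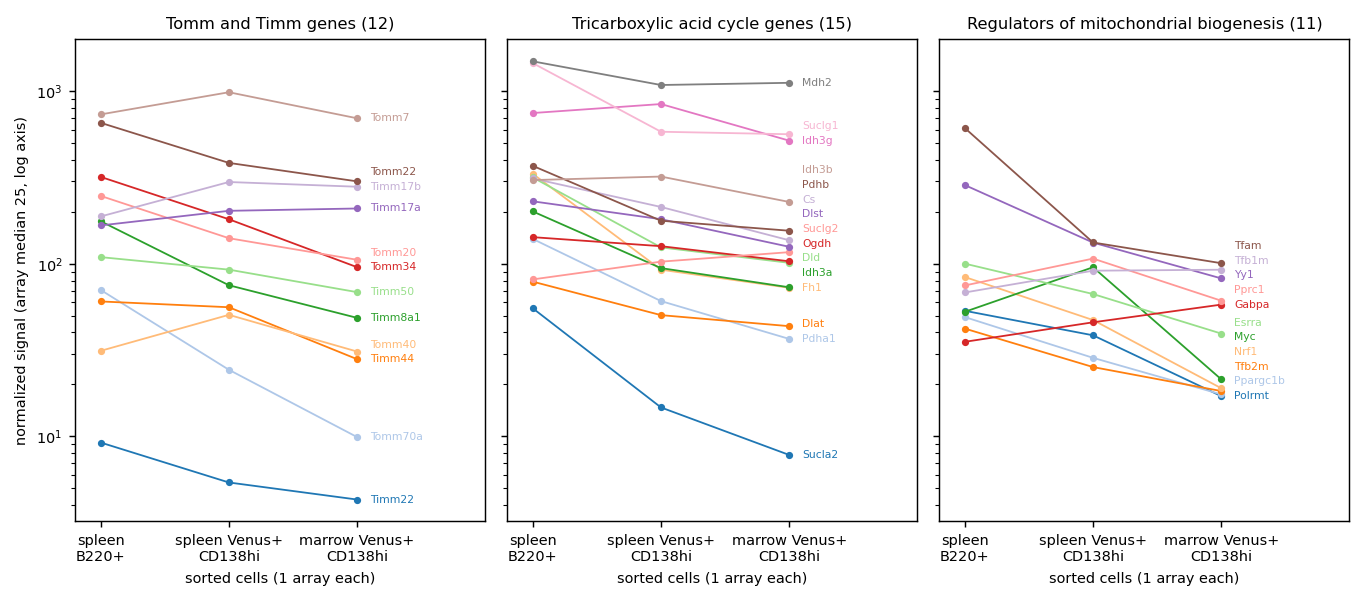
Normalized signal on a log axis (array median 25) of the Tomm and Timm genes (12), the tricarboxylic acid cycle genes (15) and the regulators of mitochondrial biogenesis (11) detected on all 3 arrays; lines join the values of a gene over the 3 sorted samples, 1 array each, and labels are spread to stay legible. Tomm70a went from 70.5 to 9.9 and Tfam from 611.8 to 100.8 between B220+ and marrow Venus+ cells.

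Between the Venus+ samples of spleen and marrow the fewest of the genes described here were called. The same was so for all genes, of which 4.33% were called higher in marrow and 15.2% lower. Ndufa1 and Mrpl47 were the 2 called higher in marrow, and Tomm70a, Mrpl19, Cox8b, Mrps9 and Timm44 the 5 called lower. Of the 160 genes detected on all 3 arrays, 69 had their highest signal in B220+ and their lowest in marrow Venus+ cells, with spleen Venus+ cells between, and 40 had the opposite order. Among all 10792 genes, 4381 and 3226 did. In complex I the opposite order was the more frequent, with 14 of 31 subunits ordered upwards from B220+ over spleen to marrow Venus+ cells and 10 downwards. In the mitoribosome 12 of 70 genes were ordered upwards and 32 downwards, and in import 1 of 12 upwards and 8 downwards. These orders were counted with the deposited scaling alone and depend on it. With scaling to the probes detected on all 3 arrays, the median of all genes in marrow over spleen Venus+ cells went from -0.17 to 0.16. With 1 array a group, differences between tissues cannot be told apart from differences between arrays or mice.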

How the data were processed

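RNA of 3 sorted mouse cell samples was labelled with Cy5 and hybridised to 3D-Gene Mouse Oligo 24k arrays, 1 per sample. Per the labels, the authors subtracted the mean of the blank spots from each spot intensity and scaled each array so that its detected probes have a median of 25; the deposited value table holds these linear normalized intensity values, rounded to 0.1, and lists no value for undetected probes. Values recomputed from the deposited scanner intensity files differed from it by at most 0.98%, 4.05% and 2.85% at signals of 10 or more; detection calls recomputed as the blank mean plus 2 SD differed for 0, 0 and 2 of 23473 probes, and each column of the table has a median of 25.

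Probes were named through the platform annotation (16631 with a symbol). A gene with several probes was read from the probe detected on most arrays, then the brightest. Ratios were taken as log2 of the table values, without replicates and so without a test. Genes were named by rule: the 6 highest and 6 lowest ratios per comparison, the extremes of each complex, genes detected on 1 array with the largest bounds, calls in opposite directions, isoform pairs and catalytic core subunits; other genes with values (Ndufa4, Ndufa13, Ndufb9, Atp5j2, Atp5c1, Atp5e, Cox10, Cox11, Timm50, Mrps28, Tomm7 and those of the fixed lists that are named) were chosen after their values were seen. The members, lists and rules were chosen with earlier results of these data known. Alternatives covered background, scaling, detection, filter, fold and probe choice. Python 3.11.15, pandas 2.3.3, numpy 2.4.6, matplotlib 3.10.9, R 4.3.3 and limma 3.58.1 (normexp, offset 50) were used, and the scripts were tested on simulated data. Array number limits the precision.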

Additional observations from a re-analysis of the deposited data

How the results depend on the processing

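Medians and counts below follow the order spleen Venus+ over B220+, marrow Venus+ over B220+ and marrow over spleen Venus+ cells; "spread" is the distance between the highest and lowest median of a complex (0.84, 1.37 and 0.70 as reported). Values recomputed from the scanner files, the rule applied to current symbols and genes detected on all 3 arrays changed none of these by more than the spot error or 1.5 times. With normexp on the local background, which tracks the spots (r of 0.954 to 0.967 across probes), the medians of the first and last comparison became 0.024 and -0.25, the spreads of the first and second 0.99 and 0.85, the number higher in the first 13 and lower in the last 10. Of all genes 3.29% were then higher in the first and 3.68% lower in the last. With normexp on the blank spots, chosen after seeing the data, the medians of the first and second were -0.50 and -0.69, with 1 higher and 29 lower, 3 higher and 44 lower, and 0 and 0 in the last, and spreads of 1.07 and 0.41 in the second and last. All genes gave 2.86% higher and 14.7% lower, 4.29% and 25.7%, and 0.598% and 2.97%. Scaling to the probes detected on all 3 arrays gave medians of 0.064 and 0.26 in the marrow comparisons, 3 higher in the first, 19 higher and 17 lower in the second and 5 higher and 0 lower in the last. Quantile normalization gave medians of 0.094 and 0.066 in the marrow comparisons, 9 higher and 9 lower in the first, 19 higher and 15 lower in the second and 2 lower in the last. Of all genes 12.8% were higher and 13.8% lower in the first, 23.2% and 25.6% in the second, and 10.8% lower in the last. The share called higher among all called genes in the last went from 22.2% to 44.2%. A detection limit from spots without a probe, also chosen after seeing the data, gave medians of 0.26 and 0.053 in the first and second, 13 higher and 3 lower, 19 higher and 18 lower and 1 higher and 8 lower. All genes gave 26.5% higher and 9.97% lower, 26.2% and 27.1%, and 3.41% and 21.1%. The share called higher among all called genes in the first went from 48.9% to 72.6%. A signal of at least 10 on both arrays left 8 lower in the first and 3 in the last, and a limit of 3 SD left 3 lower in the last. The shares of all genes lower were 18.9% and 13.4% with that signal and 14.2% with that limit. At 1.5-fold the counts were 17 higher and 43 lower, 23 and 56, and 7 and 20. All genes gave 26.7% higher and 28.4% lower, 30.5% and 40.8%, and 14.0% and 29.0%. The spread in the last comparison was 0.57 with the mean over probes and 0.58 with genes of 1 probe. The causes of these changes were not tested.

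Of the 39 genes called in marrow Venus+ over B220+ cells, 39 stayed at least 2-fold apart with recomputed values, 27 with scaling to shared probes, 21 with quantile normalization, 26 with normexp on the blank spots and 10 on the local background. Timm8a1, Tomm34 and Mrps9 were at least 2-fold lower in all 6 of the settings compared gene by gene. Signal over background limits Cox8b, Cox6b2, Ndufc1, Timm8b, Tomm40l and Mrpl35, which lay near the limit of detection. No paired analysis was possible because each group has 1 array and no result comes from a test.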

Other observations

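The annotation of the array lists 23 further genes of these complexes under older names, which the rule does not reach; 21 were measured on both arrays of every comparison. In marrow Venus+ over B220+ cells 3 were at least 2-fold higher and 4 lower, where all genes gave 22.6% and 30.7%, with a median of -0.13, near the -0.23 of the genes above. Cox7b2, known as the testis isoform of a complex IV subunit, was at 2.5 in B220+ cells and at 10.3 and 16.4 in spleen and marrow Venus+ cells, a log2 ratio of 2.71 ± 0.42 in the marrow cells. Ndufv3, a complex I subunit beside the NADH site, was at 494.7, 683.3 and 1161.4 (1.23 ± 0.13). Timmdc1, which takes part in complex I assembly, was at 14.2, 22.1 and 28.5 (1.01 ± 0.16). Sdhaf2, which attaches the flavin to Sdha, was at 497.5, 210.1 and 159.1 (-1.64 ± 0.13). Cox18 (97.2, 54.1 and 40.0) and Cox20 (353.1, 202.5 and 142.4), both of which assemble complex IV, had ratios of -1.28 and -1.31. Cox14 and Cox19, also of complex IV assembly, had ratios of -0.80 and 0.39 and were under 2-fold. Uqcr10, a small complex III subunit, was at 660.2, 521.3 and 327.7 (-1.01 ± 0.13), while its fellow small subunit Uqcr had a ratio of 1.18. In marrow over spleen Venus+ cells none of the 21 was at least 2-fold apart. These genes were described after their values were seen.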
